A study of Mus musculus with 311 samples.

Results

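The genes described here encode subunits of the mitochondrial respiratory chain and of ATP synthase, together with 1 factor that assembles complex I. They were taken by symbol: names that start with Ndufa, Ndufb, Ndufc, Ndufs, Ndufv, Uqcr, Sdh or Atp5, and the Cox4 to Cox8 genes. A total of 40 genes, read by 48 probes, carried such a name, and 36 of them were measured on at least 95% of the arrays, out of 11387 genes that met the same condition. Each gene was read from its probe with the fewest missing values. By the start of their symbols, the 36 genes comprised 14 of complex I, 14 of complex IV, 7 of complex V and the assembly factor Ndufaf3. Ndufa4l2 was counted in complex I by its name alone. Atp5a1 and Atp5b, which encode the large subunits of the catalytic head of ATP synthase, had values on 87.5% and 61.1% of arrays, and the complex I assembly factors Ndufaf1 and Ndufaf2 on 92.9% and 93.9%, so these 4 genes did not pass. No probe with a Uqcr or Sdh symbol was named in the tables used here, and complexes II and III were not analysed here.

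The samples were livers of 311 F2 mice, females and males, from a cross of C57BL/6J with C3H/HeJ. Both parental strains carried the ApoE null mutation, and all animals ate a "Western" diet high in fat between 8 and 24 weeks of age. Liver RNA of each animal was labelled with Cy3 and hybridised with a Cy5-labelled pool of RNA of all the samples, and each value is read as the log10 ratio of the animal over the pool. The files state neither base nor direction. In a pool of all animals, a gene that only males express should lie in males at 0.302 if the base is 10 and at 0.696 for natural logs. The Y-linked gene Eif2s3y had a median of 0.358 in the 155 livers with the higher values and -1.46 in the other 156, and Kdm5d had 0.316 and -1.02 in 156 and 155 livers. Folds printed here rest on base 10 and correlations do not. All arrays formed 1 group, no control diet or ApoE-positive animal was among them, and animals differed in the labels only by their F2 number, which ran between 2 and 359. The comparisons are therefore correlations across animals. A ratio to the pool shows how animals differ in 1 gene, and it gives no order of abundance between genes.

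Complex I takes electrons from NADH, complex IV (cytochrome c oxidase) passes them to oxygen, and complex V (ATP synthase) uses the resulting proton gradient to make ATP. Nearly all subunits are encoded in the nucleus, and a few are encoded in mitochondrial DNA. In liver the chain also disposes of the electrons that fatty acid oxidation yields. Several complex IV subunits exist as paralogs with a type that is found in liver and most tissues and a type that is typical of heart and skeletal muscle.

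The 36 genes varied little between livers and tended to rise and fall together. Among their 630 pairs, 500 had a positive Pearson r, and the mean r was 0.200 (jackknife SE over animals 0.0121, 95% interval 0.176 to 0.224). The median r was 0.170, against -0.00286 for all 64826191 gene pairs of the table, and it lay at the 86.2 percentile of that distribution. After Benjamini-Hochberg adjustment of the correlation test over all gene pairs, 348 of the 630 pairs (55.2%) were called positive, where the background over all gene pairs was 18.6%. Negative calls numbered 44 (6.98%), against a background of 18.4%. With about 311 animals the smallest r called was 0.134 in size, so a call can stand for a weak relation. An r of at least 0.5 was found for 90 member pairs, and 0.612% of all gene pairs reached it. A single shared component held 29.9% of the variance of the standardized members, and the second held 11.5%. In bulk liver RNA, fewer cells of a type and less RNA per cell cannot be told apart.

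Most members spanned a narrow range. The level at the 95th percentile of animals was 1.51-fold that at the 5th for the median member, against 1.61-fold for the median gene of the table, and 9 of 36 members had an SD above the median SD of all genes. Ndufa4l2, the homologue of Ndufa4 that is induced by low oxygen, varied least (1.25-fold between these percentiles), followed by Cox4i2 with 1.29-fold, the complex I accessory subunit Ndufa11 with 1.29-fold and Ndufaf3 with 1.32-fold. Log10 ratios of Ndufa4l2 lay between -0.0708 and 0.159 with a median of 0.0128. The widest SDs belonged to Cox8b (0.187) and Cox6a2 (0.149), both of the muscle type, followed by Cox7a1, Cox7b, Cox7c, Ndufa1, Cox7a2 and Cox6a1, with SDs between 0.0939 and 0.0719. Cox7b, a small subunit of complex IV, had log10 ratios between -0.313 and 0.370 with a median of -0.0174, and Ndufa1, a small subunit of the membrane arm of complex I, between -0.236 and 0.340 with a median of -0.0269. Neither Cox7b nor Ndufa1 fell into separate groups of animals. No member met the rule for a gene with 2 separate groups of animals (a BIC better by 10 for a mixture of 2 normal curves than for 1 normal or 1 Student t curve, a smaller share of at least 0.1, and Ashman's D, the distance of the 2 means in units of their spread, at 2 or more), which 1.85% of all genes met.

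**Figure D1:**
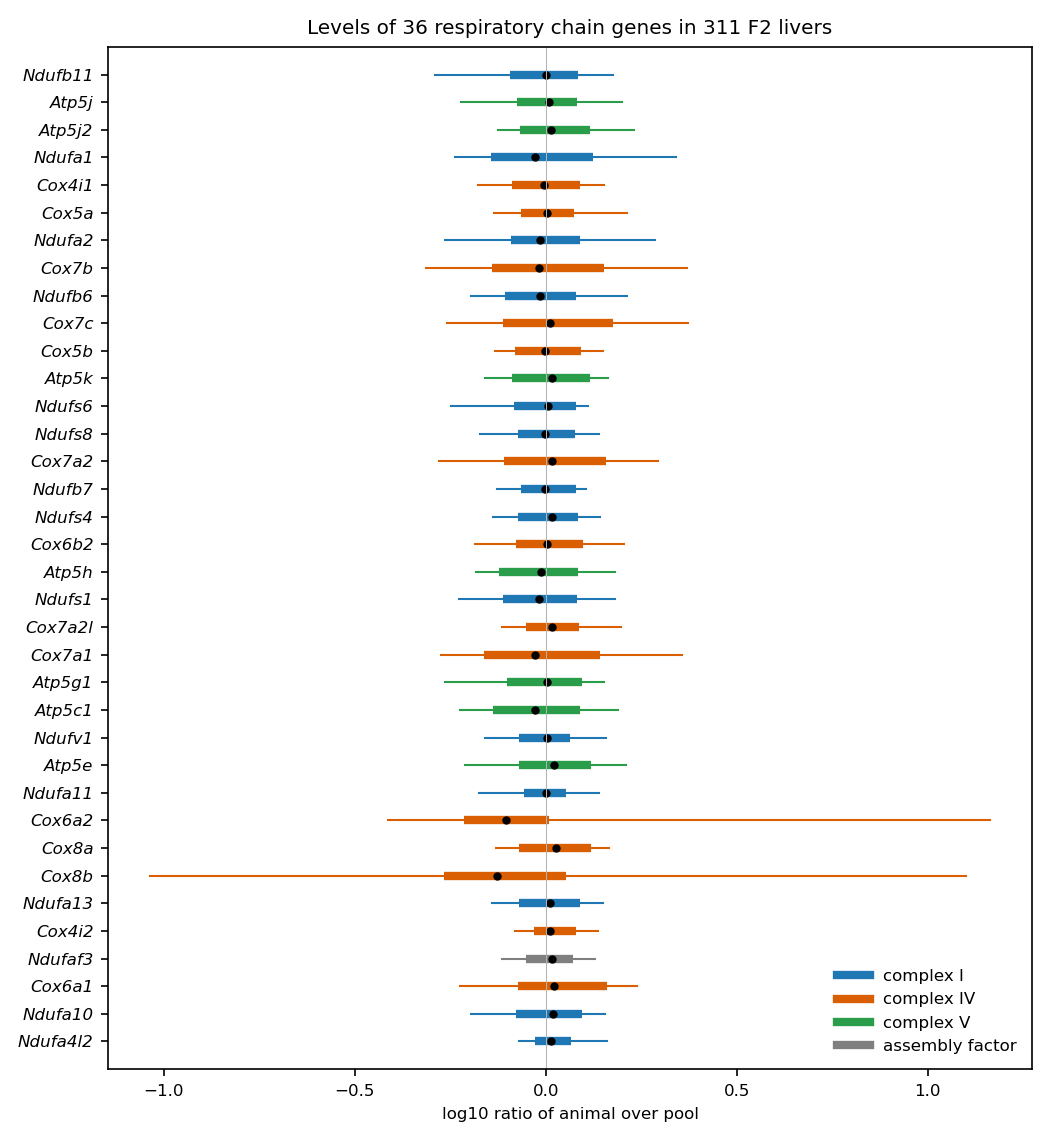
Log10 ratio of animal over pool (horizontal axis) for each of the 36 genes, ordered by their mean r with the other members (Ndufb11, 0.342, at the top and Ndufa4l2, -0.112, at the bottom). Thin lines run between the lowest and highest animal, thick bars between the 5th and 95th percentile, dots mark the median, and colours mark the complex. Cox6a2 and Cox8b have long upper tails that reach 1.16 and 1.10, beyond every other member.

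The members that followed the rest most closely came from all 3 complexes. Ndufb11, an accessory subunit of the membrane arm of complex I, had the highest mean r with the other 35 members (0.342) and a called positive pair with 28 of them, where 26.5% of all genes were called with it. Atp5j, coupling factor 6 in the peripheral stalk of ATP synthase, had a mean r of 0.335, and Atp5j2, subunit f of its membrane part, had 0.333. Ndufa1 had 0.330, Cox4i1, the widespread form of cytochrome c oxidase subunit 4, had 0.323, Cox5a had 0.316, the complex I subunit Ndufa2 had 0.315 and Cox7b had 0.312. Against the mean standardized level of all other members, r was 0.740 for Ndufb11 (95% interval 0.685 to 0.786), 0.722 for Atp5j (0.664 to 0.771) and 0.712 for Ndufa1 (0.652 to 0.763). In all, 11 members had a mean r of at least 0.3 and 34 of 36 had one above 0.

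Levels in the animals at both ends of the mean standardized level (the mean score) show the size of this shared variation. In the liver with the highest score, F2 number 345, 29 of 36 members lay above their own mean over animals. Ndufa1 was 2.19-fold, Cox7b 2.34-fold and Cox4i1 1.32-fold the pool in that liver. In the next, F2 number 141, 28 members lay above their mean, and in F2 number 187 it was 34. In the liver with the lowest score, F2 number 64, 34 members lay below their mean, and Ndufa1, Cox7b and Cox4i1 were at 0.709, 0.762 and 0.759 of the pool. Ndufa4l2 was 1 of the 2 members above their mean there, at 1.11-fold the pool. The animals were sorted by the members themselves, so these values are a description.

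As assigned by symbol, the complexes were not sharply separated from each other. Complex I includes Ndufa4l2, placed there by its name. Its mean r with the other complex I genes was -0.152, which lowers the mean within complex I. The mean without this gene was not computed, so the closeness of complex I to other pairs may depend on it. Mean r within complex I was 0.192 (SE 0.0132, 91 pairs) and within complex IV 0.216 (SE 0.0137, 91 pairs), while between complexes I and IV it was 0.182 (SE 0.0128, 196 pairs). Pairs within complex V had a mean r of 0.280 (SE 0.0234, 21 pairs), a place that depended on the probes. With only probes measured on every array complex V had 0.240, below complex I with 0.319 and complex IV with 0.370, and with probes on at least 0.5 of the arrays it had 0.200, below complex IV with 0.216. Complex V with complex I gave 0.244 (SE 0.0146, 98 pairs), and with complex IV 0.223 (SE 0.0163, 98 pairs). The 95% intervals of complex I and of the pairs between complexes I and IV overlapped, as did those of complex IV and the same pairs. These means share animals and genes, so the overlap does not test their difference, for which no interval was computed. The mean standardized levels of complexes I and V had r = 0.789 across livers (95% interval 0.743 to 0.827; rho = 0.765; 0.783 when the 2 animals most extreme in complex I were left out). Complexes I and IV gave 0.695 (0.633 to 0.749; rho = 0.683; 0.689 without 2 animals), and IV and V gave 0.687 (0.624 to 0.742; rho = 0.672; 0.692 without 2 animals). These scores were made from chosen genes and carry no p-value.

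**Figure D2:**
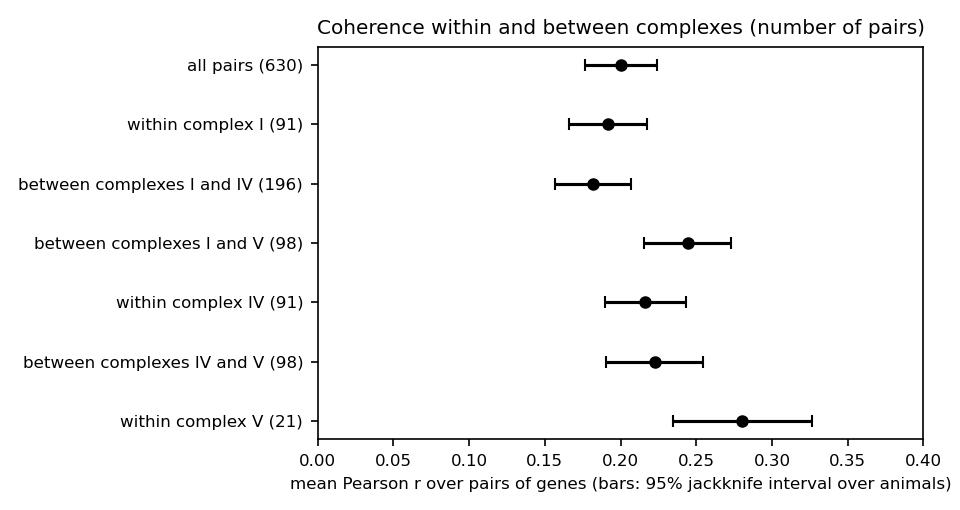
Mean Pearson r over pairs of genes (horizontal axis) for all 630 member pairs and for pairs within and between complexes I, IV and V, with the number of pairs in parentheses. Bars are 95% jackknife intervals over animals. The value within complex I (0.192) lies close to that between complexes I and IV (0.182), both with Ndufa4l2 counted in complex I. Complex V stands at 0.280, and its place above the others did not hold with stricter or wider sets of probes.

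Within complex I, Ndufb6 (0.367) and Ndufb11 (0.331) had the highest mean r with the other complex I genes, and both are accessory subunits of the membrane arm. For Ndufb6 this holds for the probe read. Its other probe had r = 0.201 with that probe, and 0.262 with the mean of the other members, against 0.666. The core subunit Ndufs1, which carries iron-sulfur clusters, had 0.253, and Ndufv1, which binds FMN and oxidises NADH, had 0.114. These are partners in the NADH-oxidising module, and their levels were weakly correlated (r = 0.182, 95% interval 0.0717 to 0.288; rho = 0.202; permutation p = 0.00149 and 0.00032; adjusted p over all gene pairs = 0.00555; r = 0.202 without the 2 farthest animals). Ndufa10 and Ndufa4l2, the latter counted here by its name, had the lowest values, -0.0390 and -0.152. In complex IV, Cox5a (0.349) and Cox7a2 (0.328) were highest, and Cox6a1 (0.00974) and Cox4i2 (0.0473) lowest. Cox5a and Cox5b, which both face the matrix side of the enzyme, had r = 0.512 (0.425 to 0.590; rho = 0.560; adjusted p = 4.25e-20; 0.582 without 2 animals), and Cox4i1 and Cox5a had r = 0.620 (0.547 to 0.684; rho = 0.610; adjusted p = 9.88e-32; 0.622 without 2 animals). For both pairs 100000 permutations gave 1e-05 on either measure, their smallest possible p. In complex V, Atp5k, subunit e of the membrane part, had the highest mean r with its complex (0.399), ahead of Atp5j (0.381). Atp5c1 (0.106) and Atp5e (0.146) had the lowest.

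The strongest pair of all joined different complexes. Cox7a2, the liver-type paralog of subunit 7a, and Ndufs4, an accessory subunit of complex I, had r = 0.809 (95% interval 0.767 to 0.844; rho = 0.785; permutation p = 1e-05; adjusted p = 7.28e-69; 0.796 without the 2 farthest animals). Cox7a2 ranged between -0.279 and 0.293 with a median of 0.0163 in log10 ratio, and Ndufs4 between -0.137 and 0.142 with a median of 0.0158. Ndufa1 was close to Ndufa2 (r = 0.769), Cox7b (0.756) and Ndufb6 (0.746), and Atp5j2 to Cox7b (0.741). Of these, Ndufa1 and Cox7b are both on chromosome X, whereas Ndufa2 is on chromosome 18 and Ndufb6 on chromosome 4. Ndufb11 and Cox4i1, on chromosomes X and 8, had r = 0.734. The pairs Cox7a2 with Ndufs4 and Ndufa1 with Cox7b were chosen after their values were seen.

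Some members moved in opposite directions. The lowest of the 630 correlations was that of Atp5e, the epsilon subunit in the central stalk of ATP synthase, with Ndufs1 (r = -0.448, adjusted p = 5.48e-15). Atp5h, subunit d of the peripheral stalk, had r = -0.414 with Cox8a and -0.409 with Ndufa4l2. Atp5e and Atp5c1, the epsilon and gamma subunits of the same stalk, had r = -0.392 (-0.482 to -0.294; rho = -0.353; permutation p = 1e-05; adjusted p = 2.30e-11; -0.389 without 2 animals; a pair chosen after its values were seen). That value became 0.0843 once the first 5 principal components of all genes were removed. The second component of the members separated such genes. At 1 end stood Atp5c1, Atp5h, Ndufs1, Ndufb6, Ndufs8 and Cox7a1, with a mean r of 0.521 among themselves, and at the other Cox8a, Atp5e, Atp5j2, Cox7a2, Cox4i2 and Ndufs4, with 0.379. Between these sets of 6 the mean r was -0.0275, with single values between -0.448 and 0.367. The sets were read from the component, so these means are a description.

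**Figure D3:**
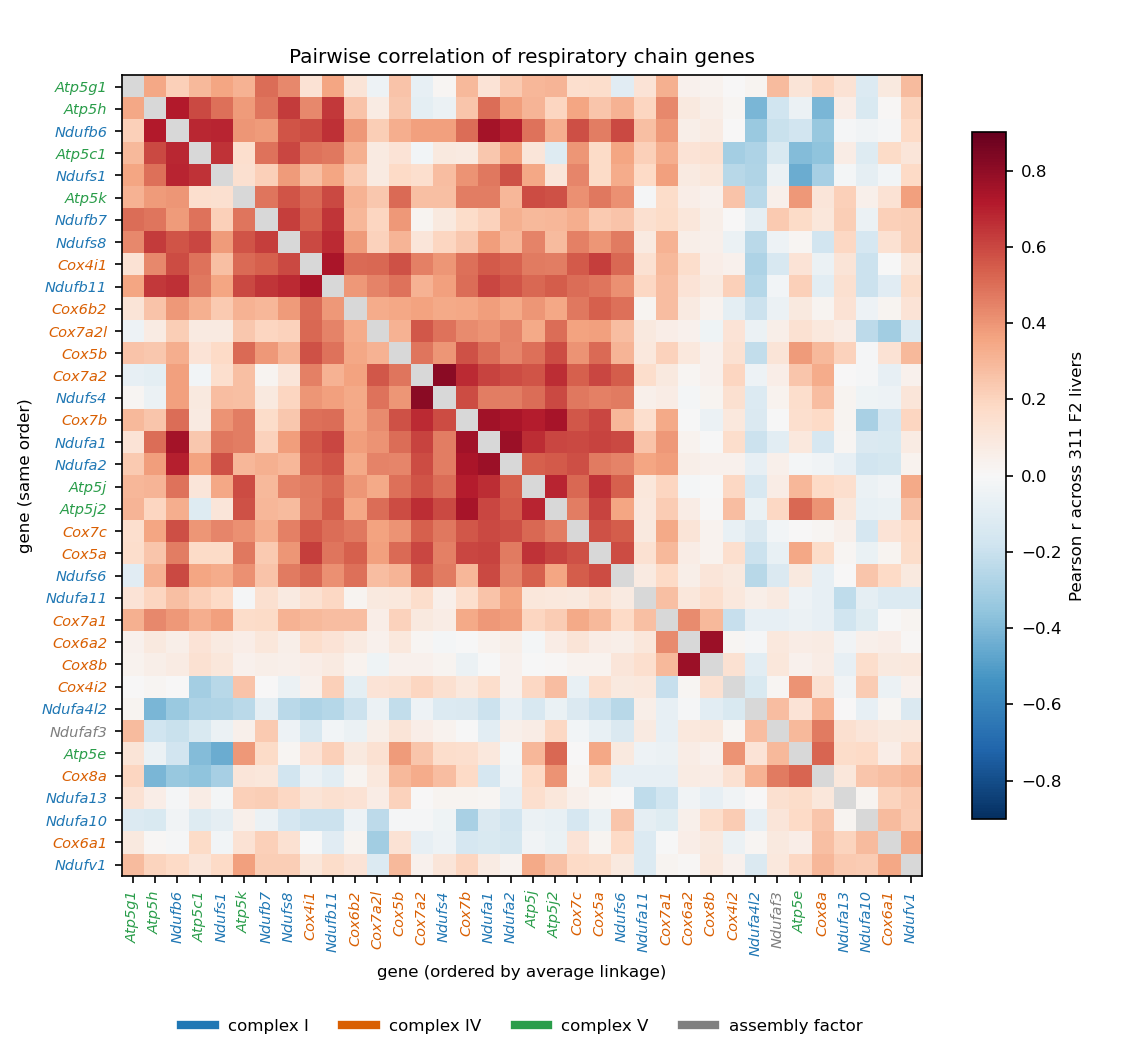
Pearson r across 311 livers for every pair of the 36 genes, which stand in the same order on both axes (average linkage on 1 minus r), with the colour of each name marking its complex. Red is positive and blue negative. A block of 22 genes from complexes I, IV and V has a mean r of 0.427 within itself. Cox6a2, Cox7a1 and Cox8b (0.495) and Atp5e, Cox8a and Ndufaf3 (0.426) form small blocks. Some of their members also follow genes of the large block, such as Cox7a1 with Atp5h (0.429) and Atp5e with Atp5j2 (0.514).

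Joined by average linkage down to an r of 0.3, a level set after the values were seen, 22 genes formed 1 group with a mean r of 0.427. It held 9 genes of complex I, 8 of complex IV and 5 of complex V, and its mean r with the other members was 0.0601. Cox6a2, Cox7a1 and Cox8b formed a group of 3 (mean r 0.495), and so did Atp5e, Cox8a and Ndufaf3 (0.426). Some of these genes also followed the large group. Cox7a1 had r = 0.429 with Atp5h, above its 0.292 with Cox8b. Atp5e had 0.514 with Atp5j2, above its 0.289 with Ndufaf3. Cox6a1 paired with Ndufv1 (0.345). Atp5g1, Ndufa11, Ndufa4l2, Ndufa10, Ndufa13 and Cox4i2 joined no other gene.

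Promoter sequences of members at both ends are shown because the question is which genes vary together. Of the 36 genes, 30 have a promoter window in the RefSeq-derived table of GRCm38.p6, in 32 windows, and only the 250 bases before each annotated start were read. Each sequence runs 5′ to 3′ on the strand of the gene, which is the minus strand for all 5. Capitals mark matches on either strand to 6 short motifs that were searched for. CGCANGCG is the core of the element that NRF1 binds, and AAGATGGC that of YY1. The estrogen-related receptors bind TCAAGGTCA, and CCGGAAG is the site of ETS factors such as the nuclear respiratory factor GABP. The letters of the TATA box were taken as TATAAA, the start element of many regulated genes. The last motif was CAGCTG, an E-box that the myogenic factors of skeletal muscle bind. Ndufb11 (chrX:20617620-20617869) and Atp5j (chr16:84834977-84835226, the nearer of its 2 windows to Gabpa) had the highest mean r. Ndufa10 (chr1:92473759-92474008) and Cox6a1 (chr5:115348959-115349208) had the lowest among members with a window, and Cox8b (chr7:140900447-140900696) is of the muscle type.
Ndufb11: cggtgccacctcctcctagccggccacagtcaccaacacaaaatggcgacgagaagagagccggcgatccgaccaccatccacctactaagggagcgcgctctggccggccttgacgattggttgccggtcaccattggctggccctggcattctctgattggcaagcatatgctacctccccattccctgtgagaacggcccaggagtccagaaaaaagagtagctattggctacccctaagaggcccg
Atp5j: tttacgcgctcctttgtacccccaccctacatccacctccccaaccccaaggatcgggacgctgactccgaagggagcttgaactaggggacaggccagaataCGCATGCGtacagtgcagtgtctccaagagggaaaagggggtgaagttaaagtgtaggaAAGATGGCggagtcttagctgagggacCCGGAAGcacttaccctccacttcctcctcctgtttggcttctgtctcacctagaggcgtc
Cox6a1: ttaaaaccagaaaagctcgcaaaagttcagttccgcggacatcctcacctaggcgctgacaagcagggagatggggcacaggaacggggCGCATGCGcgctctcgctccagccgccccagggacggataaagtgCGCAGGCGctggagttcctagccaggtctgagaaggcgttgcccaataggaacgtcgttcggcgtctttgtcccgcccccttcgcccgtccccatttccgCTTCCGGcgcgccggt
Ndufa10: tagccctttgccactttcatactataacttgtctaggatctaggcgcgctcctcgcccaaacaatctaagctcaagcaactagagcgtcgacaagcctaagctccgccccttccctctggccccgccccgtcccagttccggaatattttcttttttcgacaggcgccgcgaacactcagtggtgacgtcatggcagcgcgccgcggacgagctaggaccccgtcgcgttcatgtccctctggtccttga
Cox8b: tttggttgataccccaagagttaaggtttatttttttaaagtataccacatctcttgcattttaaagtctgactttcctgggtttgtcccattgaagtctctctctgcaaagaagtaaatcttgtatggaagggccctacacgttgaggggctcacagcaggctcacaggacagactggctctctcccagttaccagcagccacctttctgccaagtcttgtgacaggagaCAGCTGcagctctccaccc

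NRF1 matches stood before 7 of the 30 genes (23.3%): Atp5c1, Atp5h, Atp5j, Atp5k, Cox6a1, Ndufa11 and Ndufs6. They were in 7 of the 32 member windows (21.9%), where 6.76% of all 32841 windows of the same length held 1. ETS matches stood before Atp5e, Atp5h, Atp5j, Cox6a1, Ndufb6 and Ndufb7, 6 of 30 (20%). That was 18.75% of member windows, against 6.91% of all windows. The YY1 letters were found before Atp5j, 1 of 30 (3.33%, and 3.1% of member windows), against 1.56%. TATAAA stood before Ndufb7 alone and CAGCTG before Cox8b alone. Each made 3.33% of genes and 3.1% of member windows, against 12.4% and 13.0% of all windows. TCAAGGTCA stood before 0 of 30, against 0.387%. No matches of different motifs overlapped in these windows. The median GC content was 56.2% for the windows of members and 52.4% for all windows, and a share of matches was not adjusted for it. Genes with a match lay at both ends of the order: Cox6a1, with 2 stretches for NRF1 and 1 for ETS, had a mean r of 0.0394, and Atp5j, with 1 each for NRF1, ETS and YY1, had 0.335. Ndufb11, the member of highest mean r, had no match. Matches are a description of letters and show no binding. Atp5j lies next to Gabpa, the gene of the DNA-binding subunit of GABP, and the levels of these neighbours had r = -0.116 across livers (a pair chosen after its value was seen).

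The paralog pairs of complex IV had low correlations that did not pass the test. Cox6a1 and Cox6a2, the liver and muscle types of subunit 6a, had r = 0.0583 (95% interval -0.0545 to 0.170; rho = 0.0348; permutation p = 0.307 and 0.544; adjusted p = 0.454; 0.0666 without 2 animals). Cox7a1 and Cox7a2, the muscle and liver types of subunit 7a, had 0.0903 (-0.0216 to 0.200; rho = 0.0852; permutation p = 0.114 and 0.136; adjusted p = 0.213; 0.0977 without 2 animals). Cox8a and Cox8b had 0.0666 (-0.0474 to 0.179; rho = 0.130; permutation p = 0.253 and 0.0255; adjusted p = 0.389; 0.0836 without 2 animals). Cox4i1 and Cox4i2, the form known from lung and from low oxygen, had 0.0408 (-0.0707 to 0.151; rho = 0.0227; permutation p = 0.474 and 0.689; adjusted p = 0.613; 0.0370 without 2 animals). As read here, the intervals of the 4 pairs leave room for an r of up to 0.200. Each of these upper bounds lay below the r of Cox5a with Cox5b. The pair Cox7a1 and Cox7a2 depended on the processing: over 9 alternatives its r ran between 0.0690 and 0.242. Of the other paralog groups only 1 member each was measured here: Cox6b2, the form known from testis, with a mean r of 0.239, Cox7b with 0.312, Atp5g1, 1 of the genes for subunit c of ATP synthase, with 0.177, and Ndufa4l2 with -0.112. Cox7a2l, a paralog of subunit 7a that takes part in joining complexes III and IV, had a mean r of 0.193.

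The muscle-type genes varied with each other, most of all in a few livers. Cox8b stood at 0.5 or more in log10 ratio in 7 livers, where it lay between 0.596 and 1.10, against -1.03 to 0.461 and a median of -0.130 in the other livers. In 6 of these 7, Cox6a2 lay above every other liver. Their Cox6a2 values ran between 0.526 and 1.16, so that Cox6a2 reached 14.5-fold and Cox8b 12.6-fold the pool in F2 number 67. Cox7a1 lay above all other livers in 4 of the 7. In the seventh liver, F2 number 186, Cox8b was at 0.647 while Cox6a2 was at -0.0886. Cox8a stayed between -0.0465 and 0.0909 in the 7 livers and Cox7a2 between -0.0651 and 0.102, within the range of the other livers.

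Most measured genes of the skeletal muscle list were high in the same livers. Of 9 measured genes, 6 (Atp2a1, Mb, Mylpf, Tnnc2, Tnni2 and Tnnt3) lay above all other livers in 6 of the 7, and Ckm did so in 5. Casq1, the calcium store protein of muscle, and Pvalb, parvalbumin, did so in 0 of the 7, with medians of 0.0950 and 0.0229 there. Mb (myoglobin) and Tnnc2 (fast troponin C), chosen after their values were seen, had medians over the 7 of 0.949 and 1.04, against -0.269 and -0.534 in the rest. In F2 number 186 they were low, at -0.334 and -0.643. The list's 9 measured genes (of 14) had a median r with the mean score of 0.216, and all 9 values were positive. The median was 0.0958 with Spearman's rho and 0.137 without the 4 livers in which a gene of the list was 10-fold or more over the pool. The mean score itself contains Cox6a2, Cox8b and Cox7a1, which varied with most genes of this list. Part of a positive r is therefore built in, and a score without these members was not computed. Over the whole table the genes most like Cox6a2 were Atp2a1 (r = 0.880), the calcium pump of fast muscle, Actn2 (0.866), a Z-disc actinin, and Ckmt2 (0.862), the mitochondrial creatine kinase of muscle. Those most like Cox8b were Actn2 (0.814), Myh7 (0.800), a slow myosin, and Tpm1 (0.796), a tropomyosin. The part of muscle RNA in these values was not tested.

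**Figure D4:**
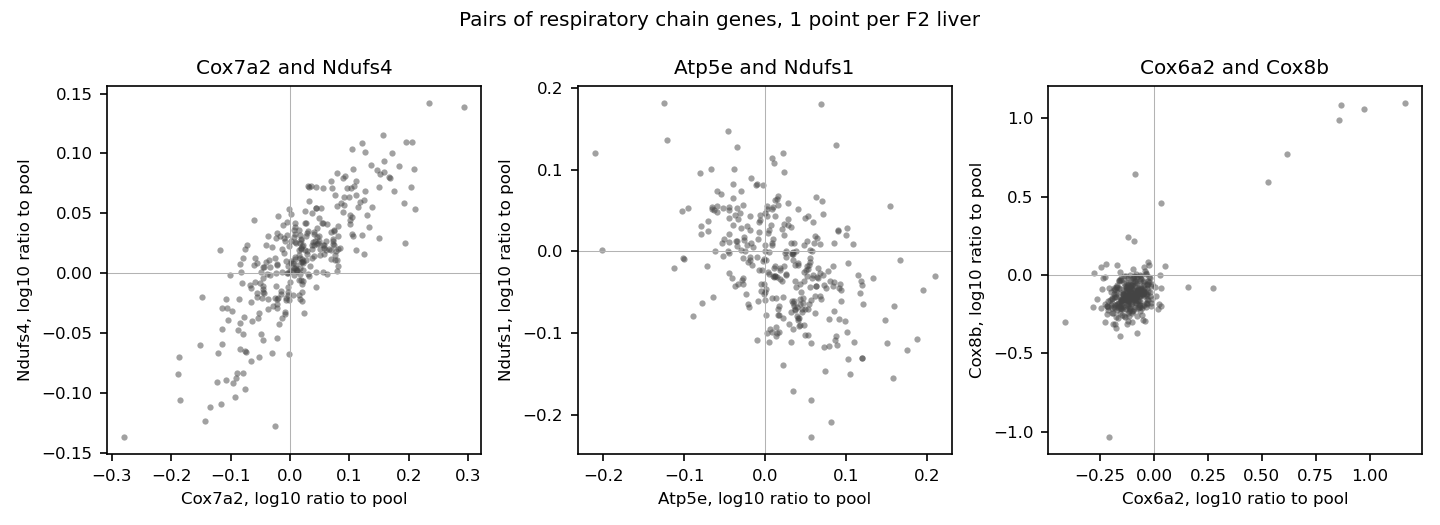
Log10 ratios of animal over pool for 3 pairs of genes, 1 point per liver. Cox7a2 and Ndufs4 (left) rise together over the whole range (r = 0.809), Atp5e and Ndufs1 (middle) move in opposite directions (r = -0.448), and Cox6a2 and Cox8b (right) have r = 0.770 but rho = 0.298, with a few livers far to the upper right.

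The r of Cox6a2 with Cox8b was 0.770 over all livers (95% interval 0.720 to 0.812; rho = 0.298; permutation p = 1e-05; adjusted p = 5.06e-58; 0.672 without the 2 farthest animals). Without the 4 livers in which a skeletal muscle gene was 10-fold or more over the pool it was 0.473. Cox6a2 with Cox7a1 had 0.423 (rho = 0.195, adjusted p = 3.74e-13) and 0.193 without these 4 livers. Cox6a2 with Ckm, the muscle creatine kinase, had 0.763 (adjusted p = 1.44e-56) and 0.276 without them, and its rho of 0.0691 did not pass (permutation p = 0.227). Cox8b with Ckm had 0.664 (adjusted p = 9.59e-38), 0.197 without them, and a rho of 0.0495 (permutation p = 0.384). The overall coherence of the 36 genes was 0.197 without the same livers. These pairs, and the leaving out of these livers, were chosen after values were seen.

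A total of 10 members had a mean r under 0.1 with the others. Besides Cox6a2 (0.0881), Cox8b (0.0763), Cox4i2 (0.0573) and Cox6a1 (0.0394) they were Ndufa11 (0.0934), Cox8a (0.0782), Ndufa13 (0.0613), Ndufaf3 (0.0475), Ndufa10 (-0.0231) and Ndufa4l2 (-0.112). Ndufa4l2 stood farthest from the rest, with 15 called negative and 2 called positive pairs (21.4% and 20.5% of all genes) and r = -0.230 with the mean of the others (95% interval -0.332 to -0.121; rho = -0.276). Its closest gene was Hspd1, the mitochondrial chaperonin, at r = -0.583, followed by MED29, named as on the platform (0.548), and Mphosph8 (-0.543). Ndufa10, a subunit of the membrane arm related to nucleoside kinases, had 7 called positive and 8 called negative pairs of 35, shares near those of all genes (20.9% and 23.8%), and its closest genes were the phosphatase gene Ptp4a2 (0.631), the YAP partner Wwtr1 (0.625) and the splicing factor Srsf5 (-0.615). Log10 ratios of Ndufa10 ran between -0.194 and 0.156 with a median of 0.0186.

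Cox8a, the liver-type subunit 8, had 15 called positive and 6 called negative pairs of 35, where 23.8% and 21.4% of all genes were called. Its closest genes outside the members were Tcea1 (-0.696), an elongation factor, Furin (0.692), a protease, and the mitochondrial ribosomal gene Mrpl12 (0.687). Cox8a had r = 0.523 with Atp5e (0.435 to 0.601; rho = 0.517; permutation p = 1e-05; adjusted p = 3.60e-20; a pair chosen after its values were seen). Cox6a1 was most like Acadvl (0.558), the very long chain acyl-CoA dehydrogenase, Sod2 (0.497), the mitochondrial superoxide dismutase, and Kap (0.480), an androgen-regulated gene known from kidney. Ndufaf3 was most like Inca1 (0.537), Paip2 (-0.530) and Eif5 (-0.528), of which the last encodes a translation initiation factor.

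The closest genes were also read for Cox4i2, Ndufa11 and Ndufa13. Cox4i2 was most like Disp2 (0.675), Egr3 (0.675) and Pax8 (0.670), the last a transcription factor of thyroid and kidney. Ndufa11 was most like Nog (0.553), an inhibitor of bone morphogenetic proteins, Zim1 (0.523) and Krtap12-1 (0.522), a hair keratin-associated protein gene. Ndufa13 was most like Nrap (0.493), a gene of striated muscle, Rtp2 (0.412) and Gm38402 (0.404). The other probe of Ndufa13 had r = 0.0660 with the one read and 0.278 with the mean of the other members, where the probe read had 0.126. The 2 probes of Ndufb6 also differed (r = 0.201), with 0.666 for the probe read and 0.262 for the other against the mean of the other members. Probes of 1 gene had higher r for Atp5h (0.876), Ndufb11 (0.801), Atp5k (0.747) and Atp5c1 (0.356, 0.590 and 0.880 for its 3 further probes).

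Among the regulators of mitochondrial gene expression, Tfam, which packages and transcribes mitochondrial DNA, had the highest r with the mean score (0.483). Tfam had called positive pairs with 24 of 36 members, where 25.6% of all genes were called, and negative ones with 6, where 27.3% were. Its highest r was with Ndufs1 (0.716, 95% interval 0.657 to 0.766; rho = 0.670; permutation p = 1e-05; adjusted p = 9.19e-47; 0.702 without 2 animals) and its lowest with Cox8a (-0.322). With Cox7a2 Tfam had 0.105 (adjusted p = 0.136; chosen after its value was seen). That value depended on the processing and ran between 0.0271 and 0.318 over 9 alternatives. Tfb2m, a mitochondrial transcription factor, had 22 positive calls (background 24.8%) and 2 negative ones (22.1%), and r = 0.410 with the score. Its highest member was Cox4i1 (0.517) and its lowest Ndufa10 (-0.565).

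Coactivators and nuclear factors gave smaller or opposite values. Ppargc1a, a coactivator of mitochondrial biogenesis, had 14 positive calls (background 24.8%) and 2 negative ones (23.8%), and its highest member was Atp5g1 (0.457). With Ndufs1 Ppargc1a had r = 0.0928 (-0.0186 to 0.202; rho = 0.124; permutation p = 0.101 and 0.0288; adjusted p = 0.196; 0.0912 without 2 animals) and with Cox5a 0.00487 (-0.106 to 0.116; rho = 0.0513; permutation p = 0.932 and 0.368; adjusted p = 0.958; 0.0248 without 2 animals). Esrra, an estrogen-related receptor, had 11 positive (24.3%) and 5 negative (20.4%) calls. Nrf1 had 3 positive (12.6%) and 6 negative (9.88%), and r = 0.103 with Ndufs1 (-0.00836 to 0.213; rho = 0.110; permutation p = 0.0695 and 0.0541; adjusted p = 0.145; 0.103 without 2 animals). Gabpa had 3 positive (15.2%) and 9 negative (14.0%), and r = -0.0697 with Cox4i1 (-0.180 to 0.0418; rho = -0.0531; permutation p = 0.219 and 0.350; adjusted p = 0.352; -0.0802 without 2 animals). Esrrg was called with 0 of 36 in either direction (3.07% and 2.65% of all genes). The named pairs depended on the processing. Over 9 alternatives the r of Ppargc1a ran between 0.00659 and 0.224 with Ndufs1 and between -0.166 and 0.150 with Cox5a. That of Nrf1 with Ndufs1 ran between -0.0782 and 0.204, and that of Gabpa with Cox4i1 between -0.315 and 0.00742.

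Pprc1, a relative of Ppargc1a, ran against the members, with 21 negative calls (22.3%), 3 positive ones (23.9%) and a lowest r of -0.674 with Atp5h. Myc had 22 negative calls (12.6%) and 1 positive (12.7%), and Ppara, the nuclear receptor for fatty acids, 18 negative (20.4%) and 6 positive (21.0%). Ppargc1b had 13 negative (20.9%) and 6 positive (23.5%). Levels of mRNA do not show the activity of a regulator. The remaining regulators measured were Tfb1m with 10 positive and 3 negative calls (17.0% and 15.7%), Sp1 with 9 and 5 (20.6% and 19.1%), Gabpb1 with 3 and 2 (13.9% and 12.9%) and Yy1 with 1 and 5 (10.5% and 10.1%). Over all gene pairs, 18.6% were called positive and 18.4% negative, and the next count is read against these shares. Of 13 pairs in the list of 32 that had both genes measured, 5 passed at an adjusted p of 0.05. The fifth, after Ndufs1 with Ndufv1, the 2 complex IV pairs and Tfam with Ndufs1, was that of citrate synthase, Cs, with Ndufs1, and it was negative (r = -0.263, -0.364 to -0.156; rho = -0.274; permutation p = 1e-05; adjusted p = 2.38e-05; -0.275 without 2 animals). With the first 5 principal components of all genes removed it was 0.111.

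The mean score was next set against every gene outside the members, as a description without p-values. Values of r of at least 0.3 were found for 583 of 11351 genes (5.14%) and of -0.3 or lower for 848 (7.47%), and the median over all was 0.00899. With the first 5 principal components removed 284 and 407 genes reached these values. The highest was Mrps21, a subunit of the mitochondrial ribosome (r = 0.715, 95% interval 0.656 to 0.765; rho = 0.702; 0.704 without the 2 most extreme scores). Hspe1, the small partner of the mitochondrial chaperonin, had 0.687, Nqo2, a quinone reductase, 0.662, and Mcee, the methylmalonyl-CoA epimerase of mitochondria, 0.662. The next were SEC23B (0.647), Eif2ak1 (0.640), ANAPC13 (0.638), Acyp1 (0.632), the proteasome subunit Psma3 (0.609), Smim11 (0.602), Commd1 (0.600) and the mitochondrial ribosomal gene Mrpl39 (0.595). SEC23B and ANAPC13 are spelled as on the platform. Mrpl39 lies 2 measured genes from Atp5j on chromosome 16.

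At the other end stood Clasp1, a microtubule-binding protein (r = -0.697, -0.750 to -0.635; rho = -0.675; -0.682 without 2 animals), Plod3, a lysyl hydroxylase of collagen (-0.658), and the deubiquitinase Usp48 (-0.655). They were followed by the kinase Mark2 (-0.636), the deubiquitinase Otud5 (-0.633), the transporter Slco3a1 (-0.629), Plscr3 (-0.624), Ranbp3 (-0.619), TMEM185B (-0.618, spelled as on the platform), the kinases Wnk1 (-0.614) and Mapk7 (-0.607), and Ppp4r1 (-0.605). Slco3a1 and Mapk7 varied 2.25-fold and 2.06-fold between the 5th and 95th percentile, wider than Mrps21 with 1.44-fold. Usp48 depended on its probe: the other probe for this gene had -0.139 with the score.

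Other mitochondrial genes followed the score in part. Among all genes outside the members 52.4% had a positive r, and the lists below are read against that share. All 11 measured genes of fatty acid oxidation were positive, with a median of 0.266, led by Eci1 (0.420), Acads (0.360) and Ehhadh (0.325), with Slc25a20 (0.108) and Cpt2 (0.0290) lowest. Of 29 mitochondrial ribosomal genes 23 were positive (median 0.185), with Mrps21, Mrpl39 and Mrpl21 (0.441) highest and Mrpl38 (-0.273) and Mrps26 (-0.189) lowest. Of 14 genes of protein import and folding 12 were positive (median 0.169), with Hspe1, Timm10 (0.421) and Timm23 (0.393) highest, and Timm44 (-0.0575) and Tomm40 (-0.147) lowest. Carriers and porins had 8 of 12 positive (median 0.153). They were led by Slc25a5, an ADP/ATP carrier (0.549), and the porin Vdac1 (0.509), and Vdac2 was lowest (-0.119).

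The tricarboxylic acid cycle had 7 of 10 positive (median 0.119), led by Idh3b (0.473), Dld (0.413) and Suclg1 (0.336), with Pcx (-0.0968) and Ogdh (-0.144) lowest. Factors that assemble the complexes had 8 of 10 positive (median 0.139), with Nubpl (0.469), Surf1 (0.440) and Acad9 (0.335) above the rest, and Cox10 (-0.226) and Cox18 (-0.314), both for complex IV, below. All 5 measured genes of cytochrome c, coenzyme Q and related factors were positive (median 0.115), with Higd1a highest (0.418). Genes against oxidative stress had 9 of 13 positive (median 0.0404), with Prdx2 at 0.305 and catalase, Cat, at -0.353. Glycolysis had 2 of 7 (median -0.0350).

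Lists outside mitochondria overlapped these values. Proteasome genes had 22 of 29 positive (median 0.135), led by Psma3, Psmb7 (0.579) and Psma2 (0.572), with Psmc4 (-0.258) and Psmd4 (-0.311) lowest. Cytosolic ribosomal genes had 37 of 40 (median 0.173), led by Rpl23a (0.503), Rpl10l (0.491) and Rps3 (0.466). Hepatocyte genes had 5 of 6 (median 0.227), led by Ttr (0.457), and 1, Serpina1a, was at -0.0196. Macrophage genes had 5 of 15 (median -0.0925), with Csf1r (-0.385) and C1qb (-0.329) lowest, and genes of stellate cells and matrix 2 of 9 (median -0.106), with Col1a1 at 0.484 and Lox at -0.284. Medians were 0.0644 for pancreas genes (8 of 8 positive), 0.0983 for adipose genes (3 of 4), 0.0875 for erythroid genes (3 of 4), 0.0241 for endothelial genes (5 of 8), -0.0366 for lymphocyte genes (3 of 7) and -0.0342 for the vacuolar ATPase (5 of 13). Some medians depended on the processing. Over 9 alternatives the hepatocyte median ran between 0.00888 and 0.296, and that of stellate cells and matrix between -0.134 and 0.0533. The macrophage median stayed negative (-0.179 to -0.0586). The part of the mix of cells in the mean score was not tested.

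**Figure D5:**
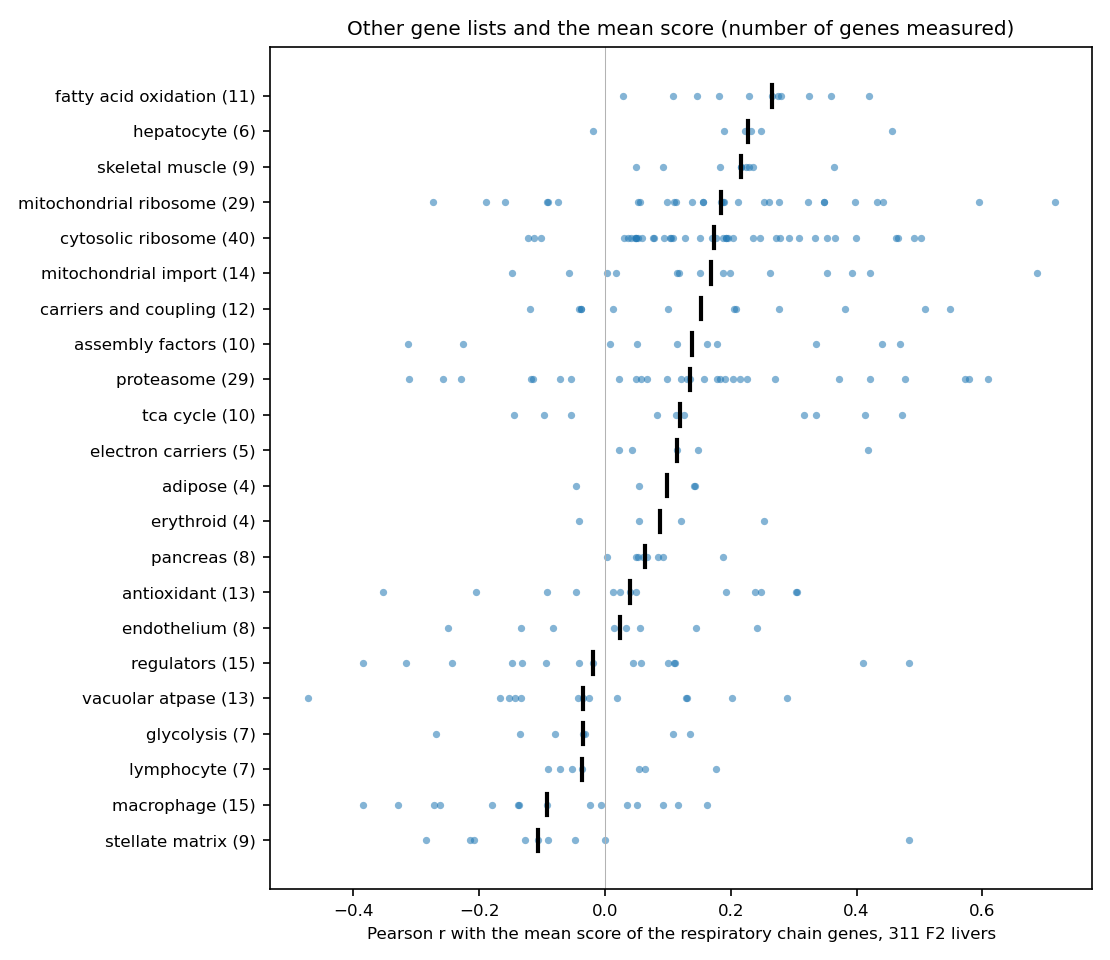
Pearson r with the mean score of the 36 genes across 311 livers (horizontal axis) for the genes of each list (points), with the list's median as a black bar and the number of measured genes in parentheses. Fatty acid oxidation has the highest median (0.266, 11 of 11 genes positive) and the stellate cell and matrix list the lowest (-0.106).

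Set beside like lists, the respiratory chain genes had a mean pairwise r of 0.200. Fatty acid oxidation genes had 0.263 (55 pairs), cytosolic ribosomal genes 0.147 (780 pairs), proteasome genes 0.128 (406 pairs), tricarboxylic acid cycle genes 0.0749 (45 pairs), mitochondrial ribosomal genes 0.0692 (406 pairs) and import genes 0.0567 (91 pairs). No test compares these lists, and they differ in size.

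Array properties moved with the score to some extent. The mean score had r = 0.318 with the array median (rho = 0.374), -0.117 with the array SD and -0.0603 with the number of missing values. Across the principal components of all genes the score was spread over several, with r = -0.529 with the second component and -0.550 with the ninth. With each array centred on its median the overall coherence was 0.188, and with 5 components removed 0.219. Livers fell into 155 with higher and 156 with lower Eif2s3y, a gene of the Y chromosome. The coherence was 0.204 among the first and 0.207 among the second, and the median score -0.0657 and 0.0846.

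Along the F2 number, the only label that differs between animals, several members shifted slightly. limma, fitted to all 11387 genes with a straight line on the number, called 17 members higher and 3 lower with rising number at a Benjamini-Hochberg adjusted p of 0.05, where 12.2% and 11.5% of all genes were called. Ndufa1 had the smallest p: its median log10 ratio was -0.00121 in the 155 livers with numbers above 186 and -0.0471 in the 156 others, with ranges that overlapped (-0.236 to 0.340 and -0.181 to 0.196). The fitted change was 1.07-fold per 100 numbers (log10 slope 0.0280, SE 0.00405, adjusted p = 1.49e-08). Ndufb6, Cox7b, Ndufa2, Ndufs1 and Cox4i1 followed, with 1.04-fold, 1.06-fold, 1.04-fold, 1.04-fold and 1.03-fold per 100 numbers (adjusted p between 4.35e-07 and 2.61e-05). The 3 lower members were Ndufaf3 (0.982-fold, adjusted p = 0.00146), Atp5e (0.977-fold, 0.0108) and Cox8b (0.936-fold, 0.0226), and without the 4 livers of strong muscle signal Cox8b had 0.971-fold (adjusted p = 0.192). The mean score had r = 0.224 with the F2 number (rho = 0.237; 0.227 without 2 animals). What the number stands for beyond the animal is not given in the labels, and a batch behind it was not tested.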

How the data were processed

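Liver RNA of 311 F2 animals (1 group) was hybridised against a common pool on 2-colour arrays, with the animal in Cy3 and the pool in Cy5, per the labels. The deposited values ran between -2 and 2 and were used as deposited, as log10 ratios; base, sign and the authors' normalization are not given in the sources used here. Base and sign were derived from Y-linked genes (predicted 0.302 in males for log10, 0.696 for natural log and 1.00 for log2; medians 0.358 for Eif2s3y and 0.316 for Kdm5d) and make log10 of animal over pool likely. The slope of gene means on variances (-0.848) lay between the values a pool of all samples needs for log10 (-1.15) and natural log (-0.5) and does not settle the base. Of 48205 array pairs 131 had r under -0.3 (lowest -0.435). The direction was kept, since each array's dyes are labelled, and correlations do not depend on base or sign. Array medians lay between -0.0218 and 0.0172, and 0.745% of values were missing. The number of arrays limits the precision. In 1 sample the F2 number of the title differs from that of the source name, and the title's was taken. Nothing in the labels says that RNA was extracted more than once per animal.

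Of 23388 probes 13645 named 1 gene, 48 several and 9695 none. Symbols were updated through a RefSeq table of GRCm38.p6 (12653 via Entrez ID, 4 via accession, 214 via the symbol itself, 93 via a former one, 681 kept). Tests were the Pearson correlation test over all gene pairs and limma, both with Benjamini-Hochberg adjustment at 0.05, and permutation tests (100000, two-sided, seed 2814) for 13 listed and 9 later pairs. Intervals for r are Fisher intervals. The mean score is the mean of the standardized members. Named genes are the members with the 8 highest and 12 lowest mean r, the 8 largest and 4 smallest SDs, the 2 highest and 2 lowest in their complex, all paralogs, members whose probes disagree (r under 0.3) and the 6 smallest p for F2 number. Outside the members they are those of the pairs, the 12 highest and 12 lowest correlates, the 3 genes closest to each member that stood apart, and up to 3 highest and 2 lowest per list; others are said to have been chosen after their values were seen. Members and lists were chosen with earlier results of these data known. Scripts were tested on simulated data. Alternatives were centring, probe filters, the most variable probe, Spearman correlation, the lower and the upper F2 numbers apart, leaving out arrays, Y-linked covariates and removal of 5 components. The software was R 4.3.3 with limma 3.58.1, and Python 3.11.15 with matplotlib 3.10.9, pandas 2.3.3, scipy 1.17.1 and numpy 2.4.6.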

Additional observations from a re-analysis of the deposited data

How the results depend on the processing

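The mean r of the 36 genes stayed positive under all 12 alternatives, between 0.176 and 0.269. With only probes measured on every array it was 0.269, with 0.319 within complex I, 0.370 within complex IV, 0.240 within complex V, 0.294 between I and IV and 0.275 between IV and V, and 191 positive and 17 negative pairs were called among fewer genes. With probes on at least 0.5 of the arrays, which adds Atp5a1, Atp5b, Ndufaf1 and Ndufaf2, it was 0.176, with 0.190 between complexes I and V and 0.200 within complex V. Complex IV had 0.188 among F2 numbers above the median. With the first 5 components removed, 14 negative member pairs were called, 284 genes had r of at least 0.3 and 407 of at most -0.3 with the mean score, and 3 pairs changed sign: Ppargc1a with Cox5a (-0.166), Cs with Ndufs1 (0.111) and Atp5e with Atp5c1 (0.0843). The share of all gene pairs called under these alternatives is not given here. For the F2 number, 10 members were called higher when numbers above the median were set against the rest. Of all 11387 genes, 438 were called higher in that comparison, against 1389 in the main fit. Without the 10 arrays of largest spread, 5 members and 1187 of all genes were called lower. Without the 4 livers of strong muscle signal, left out after seeing the data, 18 members were called higher and 2 lower. Among all genes 1414 were called higher and 1354 lower there. The causes were not tested. The other 116 recomputed values of the main results kept their direction and stayed within 1.5 times or the error of the values reported. No member was called clustered under any of the 4 alternatives run. No paired analysis was possible because all animals form 1 group. The precision is limited by the number of arrays, and signal over background is not given in the values used.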

Other observations

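Members were also set beside their neighbours on the chromosomes. Over 72 pairs of a member with the measured gene next to it on GRCm38.p6, r ran between -0.363 and 0.567 with a median of 0.0514. The median over all gene pairs of the table was -0.00286. The highest neighbour r was that of Ndufb6 with Dnaja1, a co-chaperone. It rests on the Ndufb6 probe read, whose r with the other Ndufb6 probe was 0.201. Among genes 2 places away, Cox7a2 with Senp6 had 0.565 and Atp5j with Mrpl39 had 0.435. Apart from Mrpl39, these neighbours were chosen after their values were seen.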
